A study of Mus musculus with 2 samples.

Results

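The genes of the cardiac jelly described here are 10 of the 43346 Ensembl genes quantified in mouse heart at embryonic day 15.5. They were taken by gene symbol and stable identifier: Vcan and Acan for the proteoglycan core proteins, Hapln1 for the link protein, Has1 and Has2 for the hyaluronan synthases, Cd44 for the receptor, and Adamts1, Adamts5, Adamts9 and Adamts19 for secreted proteases. All 10 were found in both libraries. Vcan and Adamts1 were the most abundant, each near 40 TPM (transcript abundance per length), while neither hyaluronan synthase reached 1 TPM. The long versican forms V0 and V1, with the exon coding for a bond that ADAMTS proteases cut, held 84.3% and 83.9% of Vcan counts. Of Vcan TPM they held only 47.77% and 49.8% in the 2 libraries. The short form V3 had the highest TPM, but its deposited interval overlapped that of V0 in both libraries.

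Cardiac jelly is the matrix that lies between the endocardium and the myocardium of the early heart. Hyaluronan, a long sugar polymer made at the cell membrane by the hyaluronan synthases, gives it volume, and versican binds to hyaluronan through link protein to form large hydrated aggregates. As trabeculae form and the valve cushions are remodelled, ADAMTS metalloproteases cleave versican and the matrix thins, while valve tissue keeps proteoglycan. Embryos that lack Has2 form neither cardiac jelly nor cushions, and versican mutants likewise fail early in heart development.

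Total RNA from whole hearts of strain B6NCrl mice was sequenced as 2 libraries of 1 group. Each library came from a pool of embryos of both sexes, 78 embryos for replicate 1 and 62 for replicate 2, with 10 ng of RNA longer than 200 nt as input and spike-in RNA added. The labels give neither a treatment nor a mutant allele, so no contrast between conditions exists, and the spread is that between pools rather than between single embryos. The depth in gene counts was 41221435 for replicate 1 and 38457396 for replicate 2. All 8 cardiomyocyte markers checked were detected (summed level 28278 and 24230.5 TPM), as were all 6 endocardial and valve endothelial markers (270.8 and 311.39 TPM) and all 7 markers of fibroblasts and valve mesenchyme (2012.97 and 2475.01 TPM). In whole tissue, fewer cells of a type and less RNA per cell cannot be told apart.

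TPM are reads per transcript length scaled to a fixed total, so they can be compared between genes. In both libraries 8 of the 10 genes reached 1 TPM, as did 13823 of all 43346 genes. That share is the background for each count of genes at 1 TPM below. It covers noncoding genes too, and the share among protein-coding genes alone was not computed. The order of mean level was Vcan, Adamts1, Cd44, Adamts19, Adamts9, Adamts5, Hapln1, Acan, Has1 and Has2. The place of Adamts9 rests on transcripts annotated as not coding. Its coding transcripts were at 1.36 and 1.42 TPM, below Hapln1 and Acan in each library. Some neighbours in this order did not differ beyond their spread. The values of the libraries overlapped for Vcan and Adamts1, for Adamts9 and Adamts5, and for Adamts5 and Hapln1. Has1 lay above Has2 in each library, but the deposited intervals of the pair overlapped in both.

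**Figure D1:**
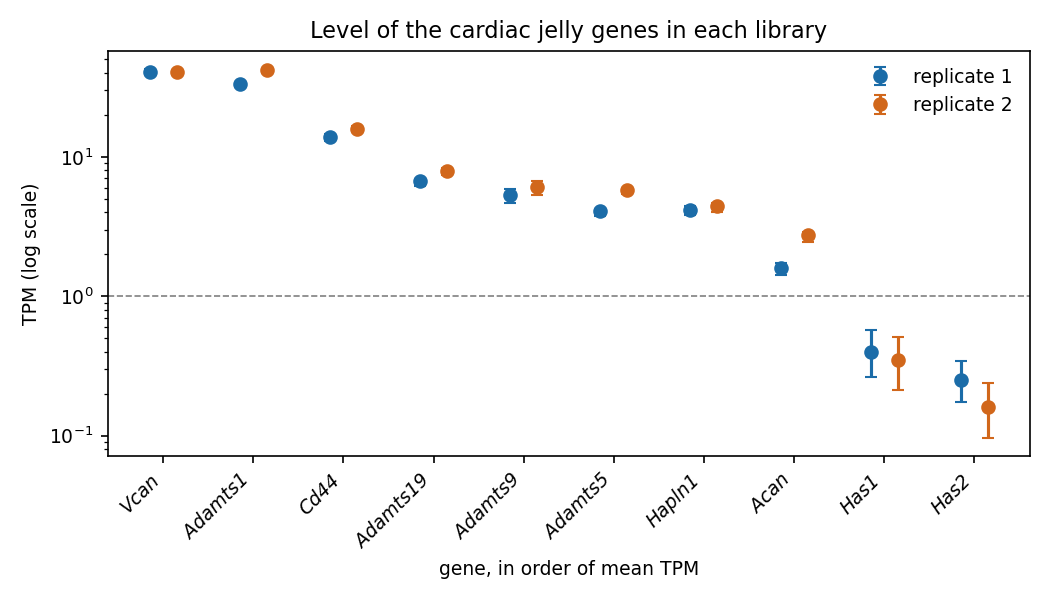
Level of the 10 cardiac jelly genes in each library, in TPM on a log axis, with the deposited interval on each value as the bar and a dashed line at 1 TPM. Vcan and Adamts1 sit highest with overlapping values, 8 genes lie above the line in both libraries, and Has1 and Has2 lie under it with the widest intervals.

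Versican is the large chondroitin sulfate proteoglycan of the embryonic heart. Vcan (chr13:89655312-89742509, minus strand, mm10) was at 40.79 TPM in replicate 1 and 40.54 TPM in replicate 2, with a mean of 40.7 ± 0.177 TPM (SD, n = 2). In TPM the 2 pools were almost level. Vcan stood above 85.6% of 21474 protein-coding genes. The counts behind these values were 8209 and 7439.

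Versican mRNA is spliced into forms that differ in 2 large exons to which the chondroitin sulfate chains are attached. Form V0 has both, V1 has only the later one, V2 only the earlier one, and V3 lacks both. In the numbering of V0, exon 7 (chr13:89702918-89705797) has 2880 bases and exon 8 (chr13:89688285-89693501) has 5217 bases. The 3 junctions that leave exon 6 are shown because they separate V0, V1 and V3 from each other. V2 also has exon 7, so the junction to exon 7 does not separate V0 from V2. Each line gives 30 bases on both sides of the junction, 5′ to 3′, from GENCODE M21 transcript sequences, with the downstream exon in capitals:
V0, exon 6 to exon 7: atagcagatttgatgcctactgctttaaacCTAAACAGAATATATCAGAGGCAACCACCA
V1, exon 6 to exon 8: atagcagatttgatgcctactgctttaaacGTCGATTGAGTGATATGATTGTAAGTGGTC
V3, exon 6 to exon 9: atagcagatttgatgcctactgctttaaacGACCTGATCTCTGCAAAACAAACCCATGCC

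The upstream side of each junction is identical, and the downstream side is a different exon in each form shown. V3 (2321 nt) was at 14.60 TPM in replicate 1 and 14.51 TPM in replicate 2, and V0 (12427 nt) was at 12.87 and 12.00 TPM. V1 (8332 nt) was at 6.61 and 8.18 TPM. V2 (5702 nt), the form best known from the adult nervous system, was at 0.05 and 0.08 TPM, from 9.43 and 13.23 estimated counts. By TPM the order was V3, V0, V1 and V2 in both libraries. The deposited intervals of V3 (12.55 to 15.70 TPM) and V0 (12.10 to 13.17 TPM) overlapped in replicate 1, and those in replicate 2 (11.94 to 16.16 and 11.18 to 12.29 TPM) did too. V1 lay under both forms in both libraries.

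The 2 forms with exon 8, V0 and V1, together made up 47.77% of Vcan TPM in replicate 1 and 49.8% in replicate 2 (mean 48.8 ± 1.44%, SD, n = 2). As a share of Vcan counts, the same 2 forms made up 84.3% and 83.9%. The measures differ because a long transcript gives more reads per molecule: V0 held 62.8% and 57.7% of the counts, V1 21.5% and 26.3%, and V3 12.8% and 12.6%. V3 held 35.8% of Vcan TPM in each library. The remaining 5 annotated transcripts, all partial or with retained intron sequence, held 16.29% and 14.2% of TPM but 2.74% and 3.33% of counts. The split is an estimate by the authors' software. V0 has 1203 bases in no other transcript, and V1, V2 and V3 have 0, so no single base marks those forms. Among V0 to V3, reads across a junction can still mark V1 (exon 6 to exon 8) and V3 (exon 6 to exon 9). Reads across junctions were not counted here. Exon 7 is also in V2 and exon 8 in V1, so the 1203 bases lie in neither large exon. The annotated last exons differ too, with 2047 bases in V0, 1019 in V1, 714 in V2 and 303 in V3. The split between the forms therefore also rests on reads in the last exon.

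**Figure D2:**
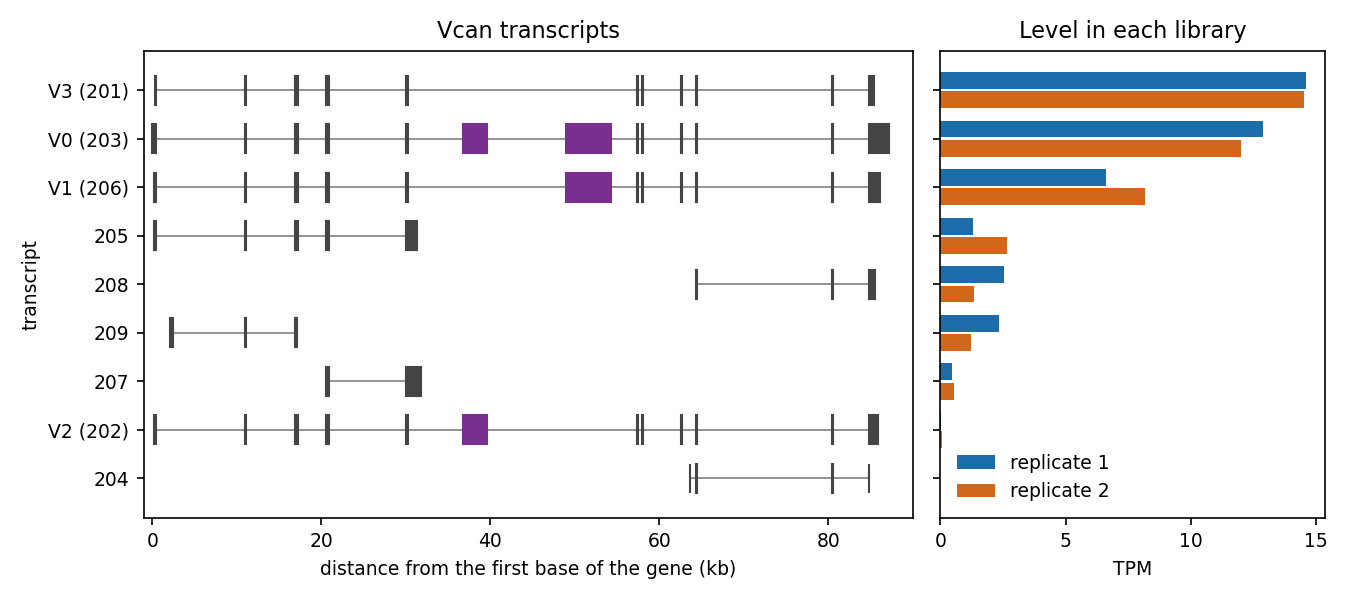
Annotated Vcan transcripts drawn to scale from the first base of the gene (left, in kilobases, the 2 large chondroitin sulfate exons in purple) and the TPM of each in replicate 1 and replicate 2 (right, bars from 0). V3 and V0 lead with 12.00 to 14.60 TPM, V1 follows, and V2 is near 0.

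A bond that ADAMTS proteases cut in versican lies between a glutamate and an alanine coded in exon 8. In V1 these are residues 441 and 442 of 2394, and in V0 residues 1401 and 1402 of 3354, in the translations of the annotated coding sequences. The translation of V3, with 655 residues, has 0 such sites. The coding bases around the site (chr13:89693191-89693250, minus strand, mm10, GENCODE M21) are shown because they separate the forms that can be cut there from the form that cannot. The codons of the glutamate and the alanine are in capitals:
Vcan exon 8, cut site: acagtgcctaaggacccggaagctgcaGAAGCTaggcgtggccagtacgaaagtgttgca
V0 and V1, which have these bases, together held 19.48 TPM in replicate 1 and 20.18 TPM in replicate 2. V3, without them, held the 14.60 and 14.51 TPM given above. V2 and the 5 remaining transcripts were not searched for the site, and no other cut site was searched for. RNA levels give the template for the cut protein and not the amount that was cut.

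Aggrecan, the related core protein best known from cartilage, was far lower than versican. Acan (chr7:79053483-79115099, plus strand) was at 1.60 TPM in replicate 1 and 2.73 TPM in replicate 2 (2.17 ± 0.799 TPM, SD, n = 2), from 378 and 575 counts. On the log2 scale with 0.1 TPM added to each value, Vcan exceeded Acan by 4.59 in replicate 1 and 3.84 in replicate 2 (4.22 ± 0.53, SD, n = 2), or 18.6-fold. Acan had the highest ratio of replicate 2 to replicate 1 among the 10 genes, 1.447 after scaling by edgeR's TMM factor, with an exact count interval of 1.268 to 1.651. Markers of cartilage moved in the same direction. All 6 had a ratio of replicate 2 to replicate 1 above 1 on the TMM scale, though only slightly for Sox5 (1.002) and Comp (1.186). Their sum was 25.81 TPM in replicate 1 and 65.04 TPM in replicate 2. On the TMM scale 4 of 6, among them Col2a1 at 7.43 and 30.18 TPM, were higher in replicate 2 by at least 1.5-fold. Of all genes tested, 11.2% were. The part of cartilage in the Acan level was not tested.

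Link protein locks the lecticans, the family of versican and aggrecan, onto hyaluronan. Hapln1 (chr13:89539796-89611652, plus strand) lies beside Vcan with the 3′ ends of both genes facing each other. It was at 4.18 TPM in replicate 1 and 4.41 TPM in replicate 2 (4.30 ± 0.163 TPM, SD, n = 2), from 673 and 633 counts, so the pools hardly differed. Vcan exceeded Hapln1 by 3.21 ± 0.06 on the log2 scale (SD, n = 2), or 9.28-fold, and this ratio was nearly the same in both pools. Among the 8 lecticans and link proteins only Vcan, Hapln1 and Acan reached 1 TPM in both libraries, and the median level of the list was 0.448 TPM. Hapln4 was lowest at 0.03 and 0.01 TPM. Ncan, the neural lectican neurocan, was low, with 0.14 TPM in replicate 1 and 0.58 TPM in replicate 2.

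The synthases were the lowest of the 10 genes. Has1 (chr17:17843323-17855205, minus strand) was at 0.40 TPM in replicate 1 and 0.35 TPM in replicate 2 (0.375 ± 0.0354 TPM, SD, n = 2), from 26 and 20 counts. Has2 (chr15:56665627-56694539, minus strand), the synthase needed for cardiac jelly in the early embryo, was at 0.25 and 0.16 TPM (0.205 ± 0.0636 TPM, SD, n = 2), from 34 and 19 counts. The deposited interval for Has2 was 0.174 to 0.342 TPM in replicate 1 and 0.0966 to 0.238 TPM in replicate 2, which overlap. A count of 3 for Has2 would have been worth 0.0221 and 0.0253 TPM, so both values lie above what a count of 0 would allow. Has2os, on the opposite strand at 0.61 and 0.26 TPM, shares 182 exon bases with Has2, and no source used here says whether reads were counted by strand.

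The third synthase gene, Has3, was at 0.17 TPM in replicate 1 and 0.22 TPM in replicate 2. Has2 was above Has3 in replicate 1 and below it in replicate 2, so the pair has no order (log2 ratio 0.04 ± 0.48, SD, n = 2). Has2 was lower than Has1 in both libraries by TPM, with a log2 ratio of −0.65 ± 0.20 (SD, n = 2), but per read, with no length normalization, the mean ratio was 0.14 in favour of Has2. Cells make the hyaluronan substrates with enzymes that serve many pathways, and those were abundant: Ugp2 at 145.0 and 123.0 TPM, Ugdh, which makes UDP-glucuronate, at 52.81 and 60.87 TPM, and Uap1 at 38.04 and 36.98 TPM. In the list of 7 synthesis genes, 4 reached 1 TPM in both libraries, and the median was 6.72 TPM.

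Of 9 genes for hyaluronan breakdown, 6 reached 1 TPM in both libraries, above both synthases, and the median was 32.5 TPM. The other 3 were Hyal3 at 0.56 and 0.68 TPM, Cemip at 0.50 and 0.49 TPM, near the level of Has1, and Spam1, the sperm hyaluronidase, with 0 counts. Hyal2, a hyaluronidase held at the cell surface, was at 59.71 TPM in replicate 1 and 73.29 TPM in replicate 2. Hexa, a subunit of lysosomal hexosaminidase, was at 52.96 and 66.63 TPM, and Gusb, lysosomal beta-glucuronidase, at 31.88 and 35.72 TPM. Cemip2, a surface protein linked to hyaluronan turnover, was at 31.1 and 33.93 TPM. Has2 was lower than Hyal2 by a log2 ratio of −7.78 ± 0.51 and lower than Cemip2 by −6.75 ± 0.39 (SD, n = 2). Both gaps were many times the spread between the pools.

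CD44 is the main cell surface receptor for hyaluronan. Cd44 (chr2:102811141-102901665, minus strand) was at 13.87 TPM in replicate 1 and 15.91 TPM in replicate 2 (14.9 ± 1.44 TPM, SD, n = 2), from 1763 and 1746 counts. Its mRNA occurs in a standard form and in forms with variable exons inserted into the part that codes for the extracellular stem. The junctions out of the last constant exon before the insertion are shown because they separate the 2 leading forms, with the downstream exon in capitals (GENCODE M21, mm10, minus strand of chromosome 2):
Cd44 variable form, constant to variable exon: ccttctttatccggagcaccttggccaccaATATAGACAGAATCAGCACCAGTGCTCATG
Cd44 standard form, constant to constant exon: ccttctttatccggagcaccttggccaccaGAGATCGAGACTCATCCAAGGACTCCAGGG

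The standard form (2848 nt), without variable exons, was at 6.04 TPM in replicate 1 and 7.77 TPM in replicate 2. The variable form of 5045 nt, with 5 variable exons of 636 bases in all, was at 7.50 and 7.40 TPM. The deposited intervals of the 2 forms overlapped in replicate 1 (4.87 to 6.747 TPM for the standard and 6.744 to 7.96 TPM for the variable form) and in replicate 2 (6.52 to 8.60 and 6.56 to 7.91 TPM), so the forms have no order. The form with all 10 variable exons was at 0 and 0.26 TPM. Transcripts with at least 1 variable exon held 54.05% and 49.59% of Cd44 TPM and 68.3% and 63.8% of counts. The annotated forms also differ at the 3′ end: the last exon of the variable form runs 1406 bases beyond that of the standard form, so the split between them also rests on reads in the last exon.

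Among 14 hyaluronan receptors and binders, 9 reached 1 TPM in both libraries and the median was 4.07 TPM. Hmmr, a hyaluronan-binding protein of the mitotic spindle, was highest by mean level at 40.29 and 36.39 TPM, and Cd44 was lower than it by a log2 ratio of −1.36 ± 0.24 (SD, n = 2). Stab1, a scavenger receptor of macrophages and some endothelia, was at 36.71 and 38.85 TPM, above Hmmr in replicate 2, and Cd44 was the third. The 4 genes Susd5, Itih2, Itih3 and Itih4 were more than 2-fold higher in replicate 2 on the TMM scale. They were also the 4 of 13 with enough counts that were higher by 1.5-fold or more, against 11.2% of all genes tested. The share of all genes past 2-fold was not computed. Susd5 was at 0.46 and 3.55 TPM, and the inter-alpha-trypsin inhibitor heavy chains Itih2, Itih3 and Itih4 were at 0.48 and 1.65 TPM, 1.29 and 2.92 TPM, and 0.42 and 1.26 TPM. Itih1 was lowest at 0.04 and 0.17 TPM. Liver is a main source of the plasma heavy chains. Its markers were higher in replicate 2 by 1.5-fold or more for 6 of 6 genes (summed level 44.57 and 204.86 TPM). Markers of thymus and T cells were for 5 of 5 with enough counts (15.62 and 160.51 TPM). Of all genes tested, 11.2% were higher by that measure. The part of liver and thymus in these values was not tested.

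The ADAMTS proteases are secreted metalloproteases that act in the matrix. ADAMTS1 cleaves versican and is made in the endocardium during trabeculation. Adamts1 (chr16:85793827-85803113, minus strand) was at 33.25 TPM in replicate 1 and 41.68 TPM in replicate 2 (37.5 ± 5.96 TPM, SD, n = 2), from 5021 and 5693 counts, above 84.4% of protein-coding genes. It was the highest of the 19 ADAMTS genes. Its full-length coding transcript held 95.51% and 97.8% of its TPM. Adamts1 exceeded Adamts9 by 2.69 ± 0.09 on the log2 scale and Adamts5 by 2.91 ± 0.13 (SD, n = 2), or 6.47-fold and 7.51-fold. With basic protein-coding transcripts only, an alternative chosen after seeing the data, the mean log2 ratio of Adamts1 to Adamts9 was 4.60.

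ADAMTS9 also cleaves versican and is needed for normal heart and valve form. Adamts9 (chr6:92772699-92943492, minus strand) was at 5.30 TPM in replicate 1 and 6.07 TPM in replicate 2 (5.69 ± 0.544 TPM, SD, n = 2), from 628.81 and 617.97 estimated counts. Most of that level lay in transcripts annotated as not coding. The junctions out of exon 3 are shown because they separate the full-length coding form from the leading transcript, with the downstream exon in capitals (GENCODE M21, mm10, minus strand of chromosome 6):
Adamts9 coding form, exon 3 to exon 4: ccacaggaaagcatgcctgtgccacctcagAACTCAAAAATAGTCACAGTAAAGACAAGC
Adamts9 short form, exon 3 to last exon: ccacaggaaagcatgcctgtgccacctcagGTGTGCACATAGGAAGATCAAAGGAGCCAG

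The short form, a processed transcript of 1356 nt, was at 1.94 TPM in replicate 1 and 2.29 TPM in replicate 2. A retained-intron transcript of 4519 nt was at 1.33 and 1.46 TPM, and a further noncoding transcript of 2541 nt at 0.67 and 0.90 TPM. The 2 coding transcripts, of 8016 nt and 6033 nt, were at 0.69 and 0.67 TPM in replicate 1 and at 0.68 and 0.74 TPM in replicate 2. Together the coding transcripts held 25.7% and 23.4% of Adamts9 TPM and 48.6% and 45.9% of its counts. A730049H05Rik, a gene on the opposite strand at 2.41 and 2.45 TPM, shares 1381 exon bases with Adamts9. Of the bases of the 4519 nt retained-intron transcript, 1215 lie under exons of the opposite strand, and of those of the short form, 0 do. For each of the 2 coding transcripts the number is 590, and for the 2541 nt transcript it is 166. Without knowledge of strand the reads of the shared bases cannot be told apart.

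**Figure D3:**
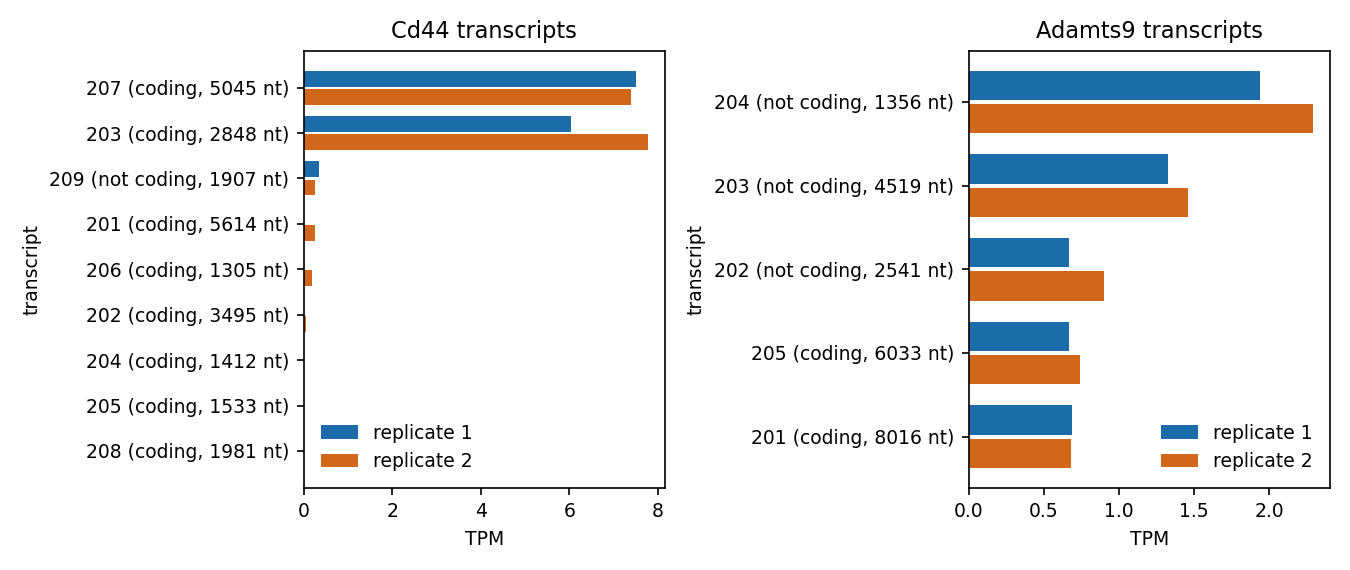
TPM of each annotated Cd44 transcript (left) and Adamts9 transcript (right) in the 2 libraries, bars from 0, with the annotated type and length in the labels. The Cd44 forms of 5045 nt and 2848 nt hold nearly all of its level, and the 3 Adamts9 transcripts that are not coding hold 74.3% and 76.6% of Adamts9 TPM.

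ADAMTS5, known for cleaving aggrecan, also clears versican from developing valves. Adamts5 (chr16:85856173-85901828, minus strand) lies near Adamts1 on the same chromosome. It was at 4.07 TPM in replicate 1 and 5.82 TPM in replicate 2 (4.95 ± 1.24 TPM, SD, n = 2), from 1056 and 1349 counts. Adamts9 exceeded Adamts5 in both libraries by a log2 ratio of 0.22 ± 0.22 (SD, n = 2), which is no larger than its spread. The order turned to −1.74 when only basic protein-coding transcripts were counted, an alternative chosen after seeing the data, and to −0.93 with no length normalization. The Adamts5 transcript is 8091 nt in the files, whose older annotation set the lengths behind TPM, and 10791 nt in GENCODE M21. The Adamts19 transcript is likewise 4666 nt in the files and 5145 nt in M21. A longer length would lower a gene's TPM, and levels with the M21 lengths were not computed.

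ADAMTS19 is a less studied protease in which mutations cause heart valve disease. Adamts19 (chr18:58836667-59054060, plus strand) was at 6.67 TPM in replicate 1 and 7.96 TPM in replicate 2 (7.32 ± 0.912 TPM, SD, n = 2), from 989 and 1054 counts. It was the second most abundant protease of the 4, above Adamts9 and Adamts5 in both libraries. Adamts5 was lower than Adamts19 by a log2 ratio of −0.57 ± 0.18 (SD, n = 2), though per read, with no length normalization, the mean ratio was 0.22 in favour of Adamts5.

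Across the whole family, 14 of 19 ADAMTS genes reached 1 TPM in both libraries, and the median was 4.63 TPM. Adamts10, known for its link to fibrillin microfibrils, followed Adamts1 at 22.25 and 39.5 TPM, and Adamts2, a procollagen peptidase, was at 8.06 and 12.06 TPM. Adamts13, the von Willebrand factor protease, was lowest at 0 and 0.01 TPM, and Adamts18 (0.46 and 1.11 TPM) was 2.04-fold higher in replicate 2 on the TMM scale. Of 7 members known to cleave versican, 6 were at 1 TPM or more, and their summed level was 60.93 TPM in replicate 1 and 74.1 TPM in replicate 2. By mean level Adamts8 (9.28 and 7.99 TPM) came next after Adamts1 in that set, followed by Adamts9 and Adamts15 (3.99 and 6.79 TPM), which changed places in replicate 2, and Adamts20 was lowest at 0.76 and 0.82 TPM. Adamts9 enters that order and the summed level with its transcripts that are not coding, which hold most of its TPM. Among the 7 ADAMTS-like genes, which lack the protease domain, Adamtsl2 was highest by mean level at 10.21 and 11.38 TPM, with Adamtsl5, above it in replicate 1, at 10.37 and 8.94 TPM and Adamtsl1 at 7.90 and 8.96 TPM, while Papln was lowest at 0.57 and 0.84 TPM. The median of that list was 7.77 TPM.

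Inhibitors and cofactors of the proteases were more abundant than most of the proteases. Timp3, the main tissue inhibitor of ADAMTS enzymes, was at 65.23 TPM in replicate 1 and 66.83 TPM in replicate 2, and Vcan was lower than it by a log2 ratio of −0.70 ± 0.03 (SD, n = 2). Fbln1, which encodes fibulin 1, a cofactor of ADAMTS1, was at 98.72 and 128.83 TPM. Timp2 was at 55.53 and 70.08 TPM and Timp4 was lowest at 0.98 and 1.39 TPM. The median of the 6 genes was 41.9 TPM, and 0 of them passed 1.5-fold between the libraries. Of all genes tested, 11.2% were higher in replicate 2 by that measure and 4.74% lower.

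**Figure D4:**
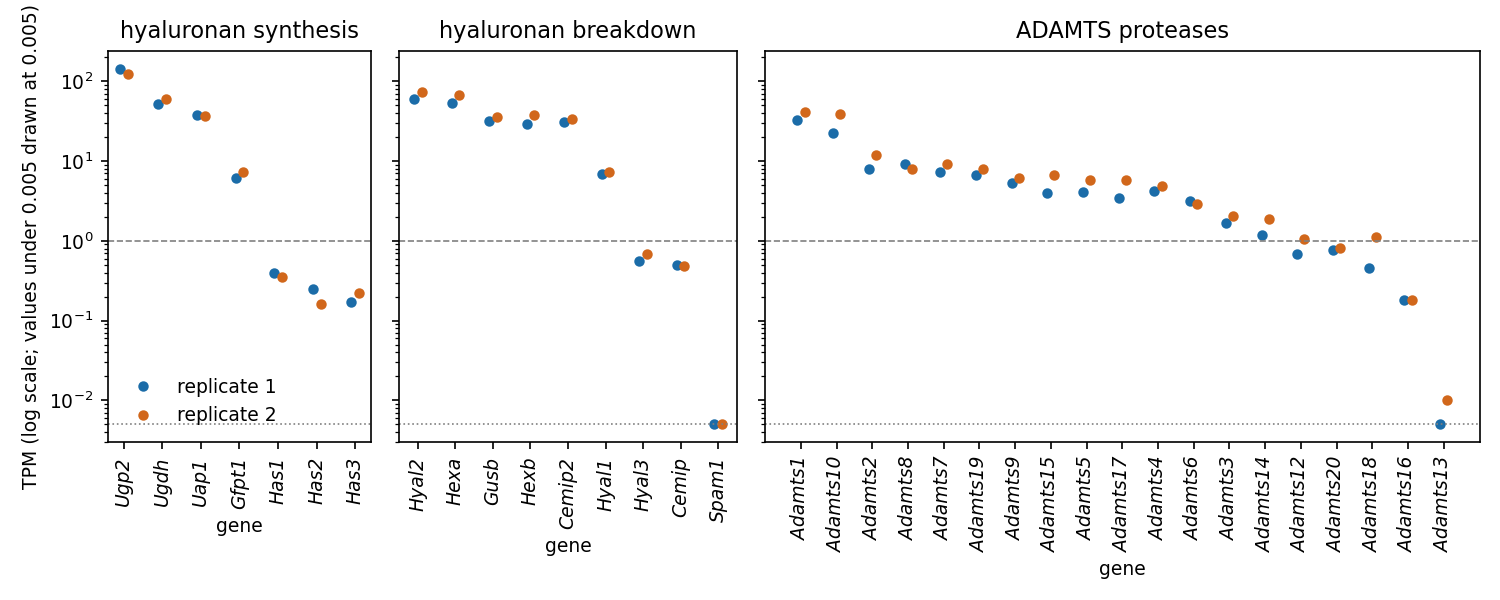
TPM on a log axis of the genes for hyaluronan synthesis, hyaluronan breakdown and the ADAMTS family in each library, with a dashed line at 1 TPM and values under 0.005 TPM drawn at the dotted line. The 3 hyaluronan synthases lie under 1 TPM while the 4 genes of substrate supply and 6 of the 9 breakdown genes lie above it in both libraries, and Adamts1 leads its family.

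Genes for building the jelly were set against genes for breaking it down as summed levels. Vcan, Acan, Has1, Has2 and Hapln1 summed to 47.22 TPM in replicate 1 and 48.19 TPM in replicate 2. Adamts1, Adamts5, Adamts9 and Adamts19 summed to 49.29 and 61.53 TPM. Adamts19 (6.67 and 7.96 TPM) is in the second sum but not among the 7 ADAMTS genes listed as known to cleave versican. The ratio of the sums without Adamts19 was not computed. In replicate 1 the Adamts19 level is larger than the gap between the sums, so the sign there rests on counting Adamts19. In replicate 2 it is smaller than the gap. The log2 ratio of synthesis to breakdown was −0.06 and −0.35 (mean −0.21 ± 0.21, SD, n = 2). Both values were under 0, but the mean did not exceed the spread, and with 2 libraries the smallest p that an exact sign-flip test allows is 0.5. Vcan supplies most of one sum and Adamts1 most of the other: without Vcan the ratio was −2.94 and −3.01, and with no length normalization it was 0.28 and −0.0046. The pair Vcan and Adamts1 had no order, with Vcan higher in replicate 1 and Adamts1 higher in replicate 2 (log2 ratio 0.13 ± 0.24, SD, n = 2).

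Some single pairs of genes gave clearer orders than the sums. Of 18 pairs, the gene named first was higher in both libraries in 10, lower in both in 6, and split in 2. Many pairs share Vcan or Has2, so they are not independent. Among the ordered pairs, Has2 to Has1, Adamts9 to Adamts5 and Adamts5 to Adamts19 reversed with no length normalization. Vcan exceeded Has2 by 7.08 ± 0.30 on the log2 scale, Adamts5 by 3.04 ± 0.36 and Adamts9 by 2.82 ± 0.14 (SD, n = 2). With basic protein-coding transcripts only, the mean log2 ratio of Vcan to Adamts9 was 4.62. Cd44 exceeded Has2 by 5.63 ± 0.44 and Hapln1 exceeded Has2 by 3.86 ± 0.36 (SD, n = 2). In these pairs the difference was several times the spread between the pools, and the added 0.1 TPM makes each ratio to Has2 smaller than the ratio of the levels themselves.

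The 2 pools were then set against each other, with 1 library on each side and so no replicate check. On the TMM scale, 0 of the 10 genes were higher in replicate 2 by 1.5-fold or more, against 11.2% of the 17029 genes that had 10 or more counts in each library. One gene, Has2, was lower by that measure, against 4.74% of all genes. Has2 was 1.882-fold lower in replicate 2, and the exact interval on the ratio of replicate 2 to replicate 1 was 0.286 to 0.959, which covers counting error only. The median log2 ratio of the 10 genes was −0.092, beside −0.016 for all genes tested. Vcan had a ratio of 0.862 (0.835 to 0.889), Adamts1 of 1.078 (1.038 to 1.12) and Adamts5 of 1.215 (1.12 to 1.318). For Cd44, Hapln1 and Adamts9 the direction depended on the scale: the ratios were 0.942, 0.894 and 0.935 on the TMM scale, but 1.15, 1.05 and 1.15 as TPM. Scaled to the spike-ins, all 10 genes were lower in replicate 2, Acan included (ratio 0.766). Among the remaining marker lists, the summed level was 202.32 and 234.44 TPM for endothelial genes, 123.08 and 170.03 TPM for epicardial genes, 1137.31 and 1209.03 TPM for smooth muscle genes and 48165.4 and 45200.6 TPM for erythroid genes. Markers of lung epithelium were higher in replicate 2 by 1.5-fold in 5 of 6 genes (134.31 and 331.64 TPM). Cardiomyocyte markers had a median log2 ratio of −0.408 on the TMM scale, with 0 of 8 above 0 and 1 lower by 1.5-fold. The part of other tissues and of cell make-up in the ratios of the 10 genes was not tested.

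**Figure D5:**
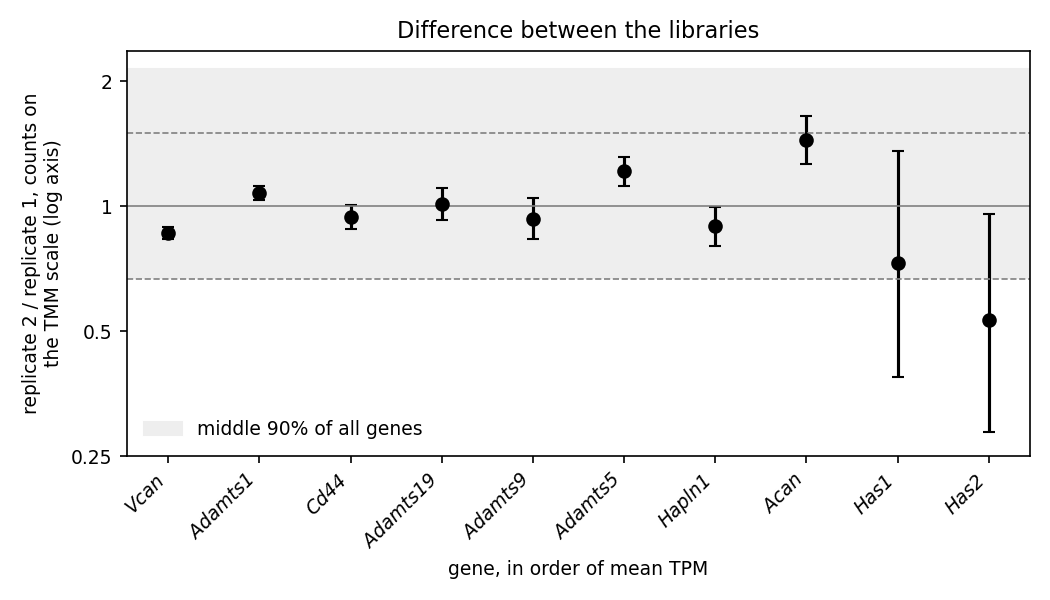
Ratio of replicate 2 to replicate 1 for each gene, from counts on the TMM scale (log axis), with exact count intervals, the middle 90% of all genes in grey and dashed lines at 1.5-fold in both directions. Has2 is the only point past a dashed line, Acan at 1.447 is the highest, and the interval of Has1 covers both sides of 1.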

How the data were processed

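Libraries were 2 pools of E15.5 hearts, numbered as in the labels. Extraction used mirVana, per the labels' protocols, which also link a SMARTer Ultra Low kit manual. Per the readme text deposited with the files, a transcriptome alignment on mm10 with annotation M4 was quantified by the authors. Aligner and quantifier: not given in the sources used here. Deposited expected counts of the authors are estimated reads, not normalized, and their deposited TPM are per effective length, scaled over all features. The bounds on TPM, a signal in TPM units, are the authors' deposited intervals, whose level is not stated. The authors' deposited percent gives each transcript's share of its gene's TPM.

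Genes were matched to GENCODE M21 (mm10) by identifier without version (42462 matched, 884 not) for symbols, positions, exons and sequences. Transcript lengths are those of the files, which for Adamts5, Adamts19, Hapln1 and Has1 differ from M21, and proteins were translated from the M21 coding sequences. Features without a gene name (spike-ins and short features) held 1.58% and 3.125% of the counts and entered neither library sizes nor ratios. Levels are mean ± SD over libraries, and ratios are log2 with 0.1 TPM added, except for the summed ratio, which had nothing added. Ratios between libraries used expected counts rounded to whole numbers for the TMM factor (edgeR 4.0.16, R 4.3.3), at least 10 counts in both, and exact 95% count intervals (scipy 1.17.1), which cover counting error only, as does the 3-count floor. The scaling was tested on simulated data. No test between groups was possible. Cell type marker lists (12) and pathway lists (12) were described by counts and medians.

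Named genes were the 10 members, genes of the 18 pairs and, in each pathway list, the highest 3, the lowest, and those past 2-fold between libraries. Other named genes were chosen after their values were seen. The members and lists were chosen with earlier results of these data known. Alternatives were other scalings, thresholds, pseudocounts, posterior mean TPM, values without length normalization, coding transcripts only, and each library left out.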

Additional observations from a re-analysis of the deposited data

How the results depend on the processing

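No paired analysis was possible because the study has 1 group. The log2 ratio of synthesis to breakdown (−0.21) ranged from −0.35 to −0.06 with either library left out and was −0.20 with posterior mean TPM. It turned to 0.14 with no length normalization and moved to −2.97 without Vcan, by construction. The share of V0 and V1 in Vcan (48.8% of TPM) was 47.8% to 49.8% with either library left out, 84.1% as a share of expected counts and 57.6% with the 4 forms as the base, an alternative chosen after seeing the data. The count of members past 1.5-fold between libraries (1, Has2) was 2 by total gene counts and by TPM (Acan added), 9 by spike-ins (all but Acan, all lower in replicate 2) and 0 at a fold of 2. Spike-in scaling moved every log2 ratio by −0.92 and total counts moved it by 0.17. The number of members at 1 TPM (8) was 7 at 2 TPM and 8 otherwise. The number of pairs with the first gene higher in both libraries (10) was 10 to 12, and the number of members with 50% or more of TPM in 1 transcript (7) was 7 to 8, with either library left out. Of 121 values for single pairs, 87 kept within their spread, 30 moved beyond it in the same direction or in a pair with no order, and 4 reversed: with no length normalization Has2 to Has1 (0.14), Adamts9 to Adamts5 (−0.93) and Adamts5 to Adamts19 (0.22), and with basic coding transcripts Adamts9 to Adamts5 (−1.74). The cause of the reversals was not tested. Depth limits Has1 and Has2, with 19 to 34 counts, and the precision of all values rests on 2 pools.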

Other observations

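Enzymes that build the chondroitin sulfate chains of versican were also listed. Of 23 such genes, 19 reached 1 TPM in both libraries, beside 13823 of all 43346 genes, and the list's median was 7.33 TPM. The share among protein-coding genes alone was not computed. B3gat3, which completes the linker to the core protein, was highest by mean level at 26.21 TPM in replicate 1 and 29.94 TPM in replicate 2. Chpf, a chain polymerizing factor, was at 19.87 and 30.13 TPM, above B3gat3 in replicate 2, and Fam20b, the xylose kinase, was at 18.28 and 19.85 TPM. Chst13 was lowest at 0 and 0.11 TPM. Of 8 genes for proteins known to bind versican, 7 reached 1 TPM in both libraries, and the median was 71.0 TPM. Eln, which encodes elastin, was at 496.65 and 807.18 TPM, Mfap4 at 132.2 and 206.91 TPM and Fbln2 at 127.95 and 208.01 TPM, and Tnr was lowest at 0.03 and 0.01 TPM.

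Small leucine-rich proteoglycans, which bind collagen rather than hyaluronan, were all above Hapln1 except Prelp in replicate 1. Dcn, decorin, was at 286.55 and 309.37 TPM, Lum at 122.76 and 123.07 TPM and Bgn at 92.35 and 125.57 TPM. Prelp was lowest at 3.35 and 4.79 TPM, and the median of the 7 was 46.0 TPM. Of 16 matrix metalloproteases, 9 were at 1 TPM or more, with a median of 1.86 TPM. Mmp2 (77.89 and 105.18 TPM), Mmp14 (72.58 and 100.19 TPM) and Mmp23 (54.23 and 61.54 TPM) led, and Mmp7 and Mmp10 had 0 counts in both libraries. Mmp9 (0.64 and 3.67 TPM), Mmp12 (1.33 and 5.29 TPM) and Mmp13 (0.16 and 0.37 TPM) were more than 2-fold higher in replicate 2 on the TMM scale. They were also the 3 of 12 with enough counts that were higher by 1.5-fold or more, against 11.2% of all genes tested. Macrophage and leukocyte markers were higher by 1.5-fold or more in 3 of 6 genes (summed level 89.72 and 144.83 TPM), against 11.2% of all genes tested. The part of these cells in the values was not tested.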
